A study of Mus musculus with 6 samples.

Results

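Caspases are cysteine proteases that cut their substrates after aspartate, and gasdermin D is the pore-forming protein that some of them cut. The genes described here are Casp1, Casp2, Casp4, Casp6, Casp8, Casp9, Casp12 and Gsdmd, taken by gene symbol from a table of 52550 genes. All 8 were found, and all 8 passed the filter on low counts that left 18849 genes for testing. RNA came from mouse alveolar type II (AT2) cells, which make surfactant in the lung, as 3 controls and 3 libraries that carry the label Grp78 knockout. Grp78 is the chief chaperone inside the endoplasmic reticulum (ER), and the comparison asks what its deletion does to RNA levels in these cells.

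All 6 samples came from C57BL/6 mice of the genotype Sftpc+/creERT2; Grp78f/f, in which a tamoxifen-inducible Cre recombinase is driven from the surfactant protein C locus and Grp78 is floxed. By the genotype labels, controls were without tamoxifen (Tmx) and knockouts with it, so tamoxifen and recombination cannot be told apart. The day label puts all 6 samples at 10 days after Tmx, which for the controls goes against their genotype label. Cells were a dispase digest of lung sorted magnetically as CD45- and EPCAM+. The labels give no age. They do not name separate animals for the replicates, and the p-values here measure only how these samples spread, which may be technical.

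Caspases are made as inactive precursors and are switched on by cutting or by being brought together, so the level of their RNA is not a measure of their activity. Casp1, Casp4 (caspase-11 in the older mouse literature) and Casp12 belong to the inflammatory group, whose members Casp1 and Casp4 cut gasdermin D and so open pores in the plasma membrane, a form of cell death called pyroptosis. Casp2, Casp8 and Casp9 are initiators of apoptosis, and Casp6 is one of the executioners. Casp12 protein was first described at the ER membrane and has been linked to cell death under ER stress in rodents.

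Library totals ran from 110770711 to 149520306 counts. Hspa5, the gene of Grp78 (chromosome 2, 34771970 to 34777547, mm10), was at 1355, 1289 and 925 CPM (counts scaled to the TMM-normalised library size) in controls 1, 2 and 3 and at 9262, 9180 and 3809 CPM in libraries 1, 2 and 3 labelled knockout. The level of Hspa5 thus went against the label (log2 fold 2.64, SE 0.361, edgeR adjusted p = 0.00208). Counts per gene cannot show whether floxed exons were lost, and every direction below compares libraries by label alone. The 8 AT2 markers were abundant and all were lower in the knockout-labelled libraries, their sum falling from a range of 97120 to 112557 CPM to one of 35837 to 45973 CPM. Scgb1a1, a club cell gene of the airway, was also abundant at 26136 to 48330 CPM over the 6 libraries. In bulk samples such as these, fewer cells of a type and less RNA per cell cannot be told apart.

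One of the 8 genes, Casp12, was higher in the libraries labelled knockout, and one, Gsdmd, was lower. Casp12 was 1.78-fold higher and Gsdmd 1.37-fold lower. The other 6 did not pass the test, with Casp6 and Casp9 the nearest to it on the low side. Across all genes tested, 36.8% were called in either direction, 18% higher and 18.8% lower, against 25% of these 8 genes. The median log2 fold of the 8 genes was -0.094, and that of all genes tested was 0.016. Without regard to sign, the median log2 fold was 0.27 for the 8 genes and 0.40 for all genes tested. The groups did not overlap for 5 of the 8 genes (2 higher, 3 lower), against 51.6% of all genes tested (25.0% higher, 26.6% lower). With the replicate number as a block, 4 of the 8 were called, against 44.6% of all genes, and without both libraries numbered 3 it was also 4, against 56.0%. With scaling by library size alone 2 were called, against 40.1% of all genes. Without control 2, 0 of the 8 were called, and the share of all genes called was then 19.1%.

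**Figure D1:**
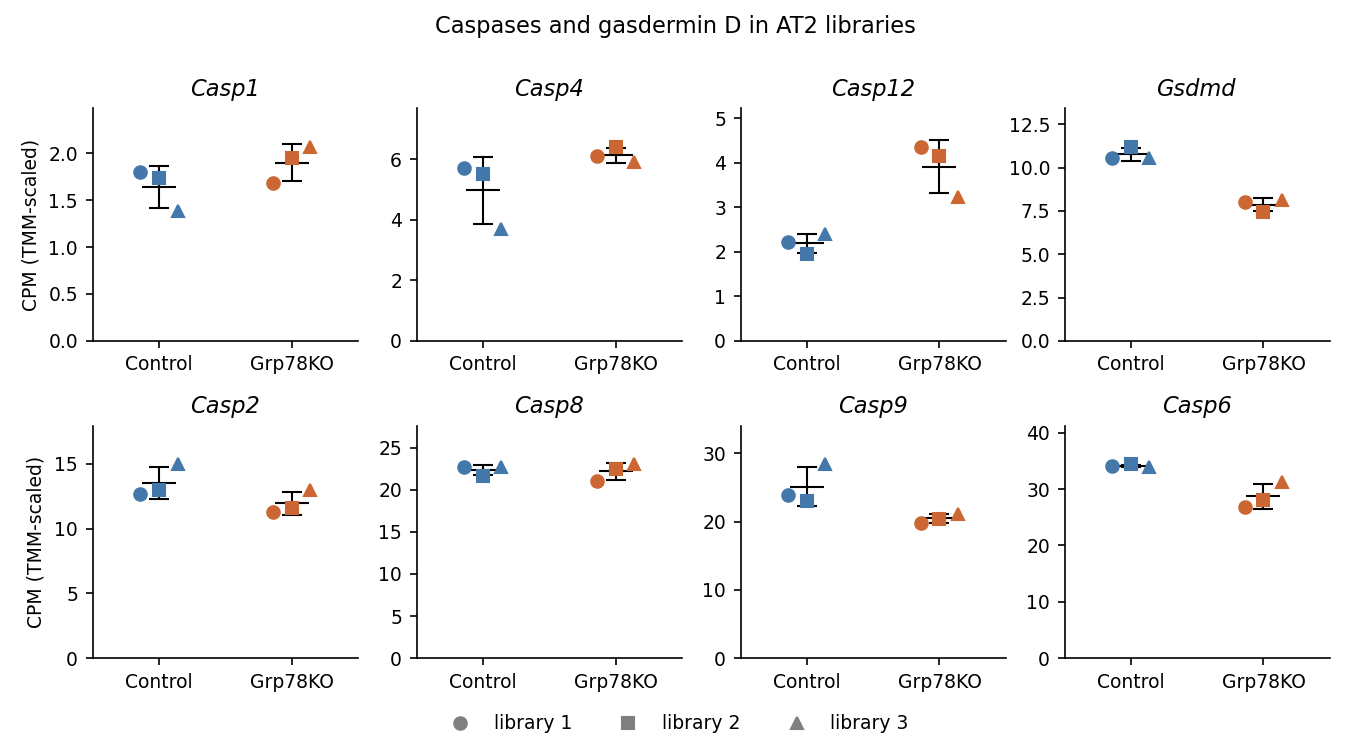
Normalised CPM of each gene in each library, on linear axes that start at 0, with one marker shape per replicate number; horizontal bars are group means and error bars are SD (n = 3 per group). The groups stand apart for Casp4, Casp12, Gsdmd, Casp9 and Casp6 and overlap for Casp1, Casp2 and Casp8.

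Casp1, Casp4 and Casp12 lie next to each other on chromosome 9 (mm10, plus strand), at 5298517 to 5307265, 5308828 to 5336783 and 5345430 to 5373032, with 1562 bases between Casp1 and Casp4 and 8646 bases between Casp4 and Casp12. The stretches before the 3 gene starts are shown because these genes adjoin and Casp12 alone of them passed the test. They are from RefSeq (GRCm38.p6), on the plus strand, and end where the GENCODE gene begins; capitals mark matches to the gamma-activated sequence and to the CCAAT box.
Casp1, chr9:5298267-5298516: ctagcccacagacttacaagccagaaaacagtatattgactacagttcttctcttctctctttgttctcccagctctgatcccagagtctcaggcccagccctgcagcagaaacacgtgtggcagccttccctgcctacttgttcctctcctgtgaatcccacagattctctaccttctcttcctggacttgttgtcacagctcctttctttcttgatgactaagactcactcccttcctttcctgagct
Casp4, chr9:5308599-5308827: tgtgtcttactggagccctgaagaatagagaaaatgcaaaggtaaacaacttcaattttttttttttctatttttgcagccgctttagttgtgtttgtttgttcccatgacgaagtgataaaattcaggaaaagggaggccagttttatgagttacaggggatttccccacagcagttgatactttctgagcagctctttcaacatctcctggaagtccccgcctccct
Casp12, chr9:5345226-5345429: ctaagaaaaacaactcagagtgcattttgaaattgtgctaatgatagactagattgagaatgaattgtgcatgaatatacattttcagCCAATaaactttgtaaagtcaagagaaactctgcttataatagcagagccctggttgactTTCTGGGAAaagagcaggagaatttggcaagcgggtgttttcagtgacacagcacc

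Across 32851 RefSeq promoters, the 250 bases before each start were searched on both strands for 6 motifs. Casp12 held the gamma-activated sequence TTCNNNGAA, a site of STAT factors, beginning 102 and 36 bases before its RefSeq start, both times as TTCTGGGAA, of which the printed stretch holds the first; 7.02% of all promoters held a match. The CCAAT box, CCAAT, was found before Casp12, Casp2 and Casp8 and in 33.8% of all promoters. No promoter of these genes in the table held the interferon-stimulated response element core (2.98% of all promoters), the ATF4 and CHOP composite site TGATGNAA (3.45%), the unfolded protein response element TGACGTGG (0.563%) or the ER stress response element (0.113%), which contains the CCAAT box. These letter matches are a description of the sequence and say nothing of binding. The table held 8 promoters for the 7 caspase genes.

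Casp12, the ER-linked member of the inflammatory group, was the gene with the largest change among the 8. Its CPM was 2.23, 1.96 and 2.39 in controls 1, 2 and 3 and 4.35, 4.14 and 3.23 in libraries 1, 2 and 3 labelled knockout. These values rest on 254, 265 and 312 counts in controls and on 591, 493 and 456 in the libraries labelled knockout. Every knockout-labelled library lay above every control, and library 3, in which Hspa5 was also least raised, was the lowest of the 3. The mean rose from 2.19 ± 0.218 CPM to 3.91 ± 0.594 CPM (SD, n = 3 each). The log2 fold was 0.83 with an SE of 0.177 (edgeR adjusted p = 0.0102). Without control 2 the log2 fold was 0.75 and the call ended (edgeR adjusted p = 0.0547).

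Markers of fibroblasts and smooth muscle moved in the same direction as Casp12. All 11 such markers tested were higher in the libraries labelled knockout (median log2 fold 1.90; the calls of Col1a1, Col1a2, Lum and Tcf21 ended without control 2, edgeR adjusted p = 0.0518 to 0.0696, and those of the first 3 also without library 1 labelled knockout), and their sum was 226, 224 and 582 CPM in controls 1, 2 and 3 and 1209, 1304 and 1348 CPM in libraries 1, 2 and 3 labelled knockout. All 5 mesothelial markers were also higher (the Wt1 call ended without any one library other than library 3 labelled knockout, edgeR adjusted p = 0.0782 to 0.139), summing to 103 to 115 CPM in controls and 181 to 215 CPM in the libraries labelled knockout. No fibroblast or mesothelial marker was at 0, and the part of these cells in the Casp12 result was not tested. Control 3 had the most fibroblast marker RNA and the highest Casp12 value among controls, whereas library 3 labelled knockout had the most fibroblast marker RNA and the lowest Casp12 value among its group. The sum of the endothelial markers was 470, 474 and 438 CPM in controls 1, 2 and 3, against 721, 755 and 443 CPM in libraries 1, 2 and 3 labelled knockout. Of 8 endothelial markers, 1 was called higher (Vwf, 1.93-fold, a call that ended without any one library other than library 3 labelled knockout, edgeR adjusted p = 0.0623 to 0.0769), and leaving out that library gave 6 higher and 1 lower. Their part in the Casp12 result was not tested either.

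Casp4 encodes the caspase that senses bacterial lipopolysaccharide inside the cell. Its CPM was 5.71, 5.51 and 3.699 in controls 1, 2 and 3 and 6.10, 6.40 and 5.91 in the libraries labelled knockout. The groups did not overlap, but control 3 lay well below the other controls. The log2 fold of 0.30 did not pass (SE 0.179, 95% interval -0.11 to 0.72, edgeR adjusted p = 0.217). With scaling by library size alone it did, at a log2 fold of 0.57 (edgeR adjusted p = 0.0268). Without control 3 the log2 fold was 0.12 (edgeR adjusted p = 0.44).

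Casp1, the protease that matures interleukin-1 beta and interleukin-18, was the least counted of the 8 genes, with 180 to 291 counts per library. Its CPM was 1.80, 1.74 and 1.38 in controls and 1.68, 1.95 and 2.06 in the libraries labelled knockout, and the groups overlapped. The log2 fold was 0.21 (SE 0.197, 95% interval -0.25 to 0.67, edgeR adjusted p = 0.429). Leukocyte markers, 20 of which were in the table, summed to 100 to 110 CPM in controls, to 117 and 116 CPM in libraries 1 and 2 labelled knockout and to 284 CPM in library 3. Of these, 2 of 18 tested were called higher (Mrc1 and C1qc, whose calls ended without any one control, edgeR adjusted p = 0.0688 to 0.121, and the block left C1qc at an edgeR adjusted p = 0.0533), the median log2 fold was 1.90, and Ptprc, which encodes CD45, was at 0.963 to 2.07 CPM except in library 3 labelled knockout, at 10.99 CPM. Without library 3 labelled knockout the median was -0.12 and 10 of the 18 leukocyte markers, all positive with it, had a log2 fold below 0. Cd14 made up 76.0 to 101 CPM of each sum. Marco and Cd3e were at 0 in at least one library. Library 3 labelled knockout also had the highest Casp1 value, and without it the log2 fold of Casp1 was 0.15. Without control 3 it was 0.096 (edgeR adjusted p = 0.722), and without both libraries numbered 3 it was 0.041 (edgeR adjusted p = 0.859). The part of leukocytes in the Casp1 result was not tested.

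Within a library, the level of Casp12 relative to its neighbour Casp4 was 0.39, 0.36 and 0.65 in controls and 0.71, 0.65 and 0.55 in the libraries labelled knockout, so that this ratio overlapped between the groups. The next protein-coding genes on either side of the cluster, Gria4 and Pdgfd, had log2 folds of 0.84 (edgeR adjusted p = 0.272, at 0.0717 ± 0.0443 CPM in controls, SD, n = 3) and 0.029 (edgeR adjusted p = 0.885). The 3 caspase genes are related in sequence, and how reads that match several genes were counted is not given in the sources used here.

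Gsdmd (chromosome 15, 75862327 to 75867408, plus strand, mm10), whose protein forms the pore of pyroptosis after it is cut, was the member that fell. Its CPM was 10.6, 11.2 and 10.6 in controls 1, 2 and 3 and 8.01, 7.45 and 8.14 in libraries 1, 2 and 3 labelled knockout. The 2 groups were narrow and did not overlap. The mean fell from 10.8 ± 0.36 CPM to 7.87 ± 0.37 CPM (SD, n = 3 each). The log2 fold was -0.45 with an SE of 0.0965 (edgeR adjusted p = 0.0105). The call ended without control 2 (log2 fold -0.43, edgeR adjusted p = 0.0541) and without library 2 labelled knockout (-0.41, edgeR adjusted p = 0.0565), and with scaling by library size alone (-0.19, edgeR adjusted p = 0.204). That scaling moved the median of all genes by 0.26 on the log2 scale. Relative to the median gene, Gsdmd was at -0.47 under both scalings. A change of scaling moves all genes by nearly the same amount, so this value could hardly differ and is no test of the call.

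All 8 AT2 markers were called lower, against 18.8% of all genes tested, with a median log2 fold of -1.28. The part of AT2 cell content in the Gsdmd result was not tested.

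**Figure D2:**
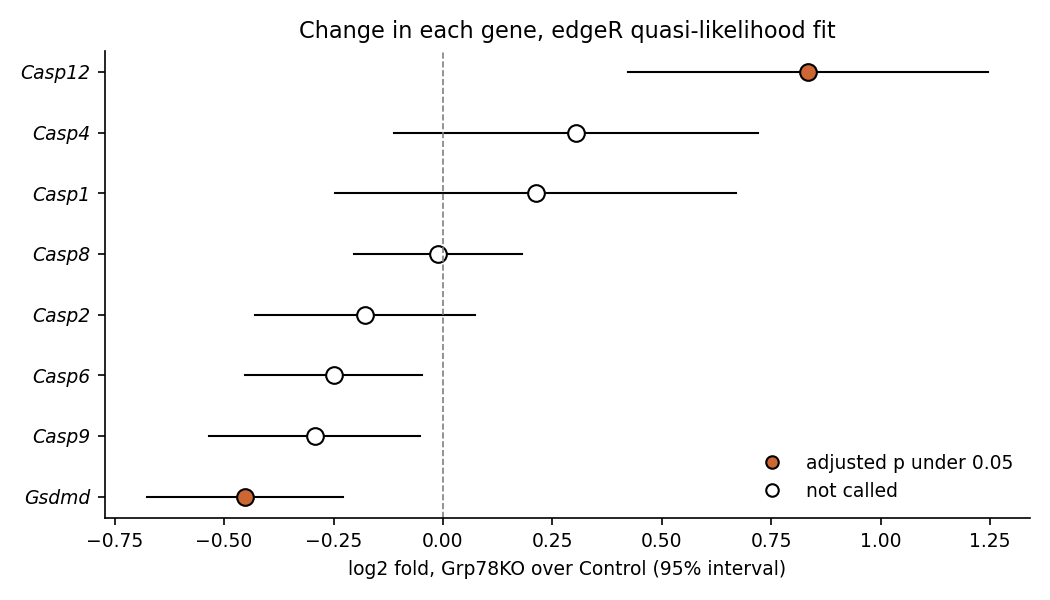
Log2 fold of each gene in the libraries labelled knockout over controls, with its unadjusted 95% interval; filled points have an edgeR adjusted p under 0.05. Casp12 lies at 0.83 and Gsdmd at -0.45, and the intervals of Casp6 and Casp9 lie below 0 although neither passed after adjustment over 18849 genes.

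Casp9 (chromosome 4, 141793612 to 141815976, plus strand), the initiator that is activated on the apoptosome, was at 23.9, 23.0 and 28.3 CPM in controls and at 19.8, 20.4 and 21.2 CPM in the libraries labelled knockout. The groups did not overlap, and the log2 fold of -0.29 did not pass (SE 0.104, edgeR adjusted p = 0.0597). With the replicate number as a block it did (log2 fold -0.29, edgeR adjusted p = 0.0305), and with scaling by library size the log2 fold was -0.040 (edgeR adjusted p = 0.834). Without both libraries numbered 3 it was -0.21 (edgeR adjusted p = 0.0256). Casp9 shares 94 exonic bases with each of the opposite-strand genes Cela2a and Ctrc, which were at no more than 0.0851 CPM in any library.

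Casp6 (chromosome 3, 129901425 to 129914103, plus strand), an executioner that cuts nuclear lamins, was at 34.1, 34.4 and 34.0 CPM in controls and at 26.9, 28.1 and 31.2 CPM in the libraries labelled knockout. The controls lay close together (SD 0.197), and all 3 libraries labelled knockout were below them. The log2 fold of -0.25 did not pass (SE 0.0869, edgeR adjusted p = 0.057). It passed with the replicate block (-0.25, edgeR adjusted p = 0.0351) and without library 3 labelled knockout (-0.31, edgeR adjusted p = 0.0122), as well as without both libraries numbered 3 (-0.31, edgeR adjusted p = 0.00304). Its sign turned with scaling by library size (0.011, edgeR adjusted p = 0.949).

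Casp2 (chromosome 6, 42264985 to 42282508, plus strand), the initiator activated by the PIDDosome complex, was at 12.6, 13.0 and 15.0 CPM in controls and at 11.3, 11.6 and 13.0 CPM in the libraries labelled knockout. In each group library 3 was the highest, and the groups overlapped. The log2 fold was -0.18 (SE 0.108, 95% interval -0.43 to 0.073, edgeR adjusted p = 0.229), and 0.076 with scaling by library size.

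Casp8 (chromosome 1, 58795374 to 58847503, plus strand), the initiator below death receptors, had the smallest difference of the 8 genes. It was at 22.7, 21.6 and 22.7 CPM in controls and at 21.1, 22.5 and 23.0 CPM in the libraries labelled knockout, and the groups overlapped. The log2 fold was -0.010 with a 95% interval of -0.20 to 0.18 (SE 0.0825, edgeR adjusted p = 0.931). Its sign turned with DESeq2 (0.0041), with upper-quartile (0.062) and library-size (0.25) scaling, with a filter at a mean of 5 CPM (0.034) and without library 1 labelled knockout (0.026), none of which called it.

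Per kilobase of exon, which allows levels to be set between genes, the order was the same in both groups: Casp8, Casp6, Casp9, Gsdmd, Casp2, Casp4, Casp1 and Casp12. In controls the level was 7.72 ± 0.22 CPM per kb for Casp8, 6.12 ± 0.0352 for Casp6, 4.82 ± 0.552 for Casp9 and 4.53 ± 0.151 for Gsdmd (SD, n = 3). It was 1.92 ± 0.177 for Casp2, 1.34 ± 0.299 for Casp4, 1.09 ± 0.151 for Casp1 and 0.571 ± 0.0566 for Casp12 (SD, n = 3). The 3 inflammatory caspases thus had the lowest levels. Among neighbours in this order, Casp9 and Gsdmd overlapped in controls (4.42 to 5.45 against 4.44 to 4.70), as did Casp4 and Casp1 (0.997 to 1.54 against 0.921 to 1.201). In the libraries labelled knockout the levels of Casp2 and Casp4 overlapped (1.60 to 1.84 against 1.59 to 1.73), as did those of Casp1 and Casp12 (1.12 to 1.38 against 0.842 to 1.13). The lengths are those of GENCODE M21, which need not be the annotation the reads were counted on.

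The other genes of the caspase pathways, listed by function, fell into 7 lists. The plot of their log2 folds shows the spread within each list around its median.

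**Figure D3:**
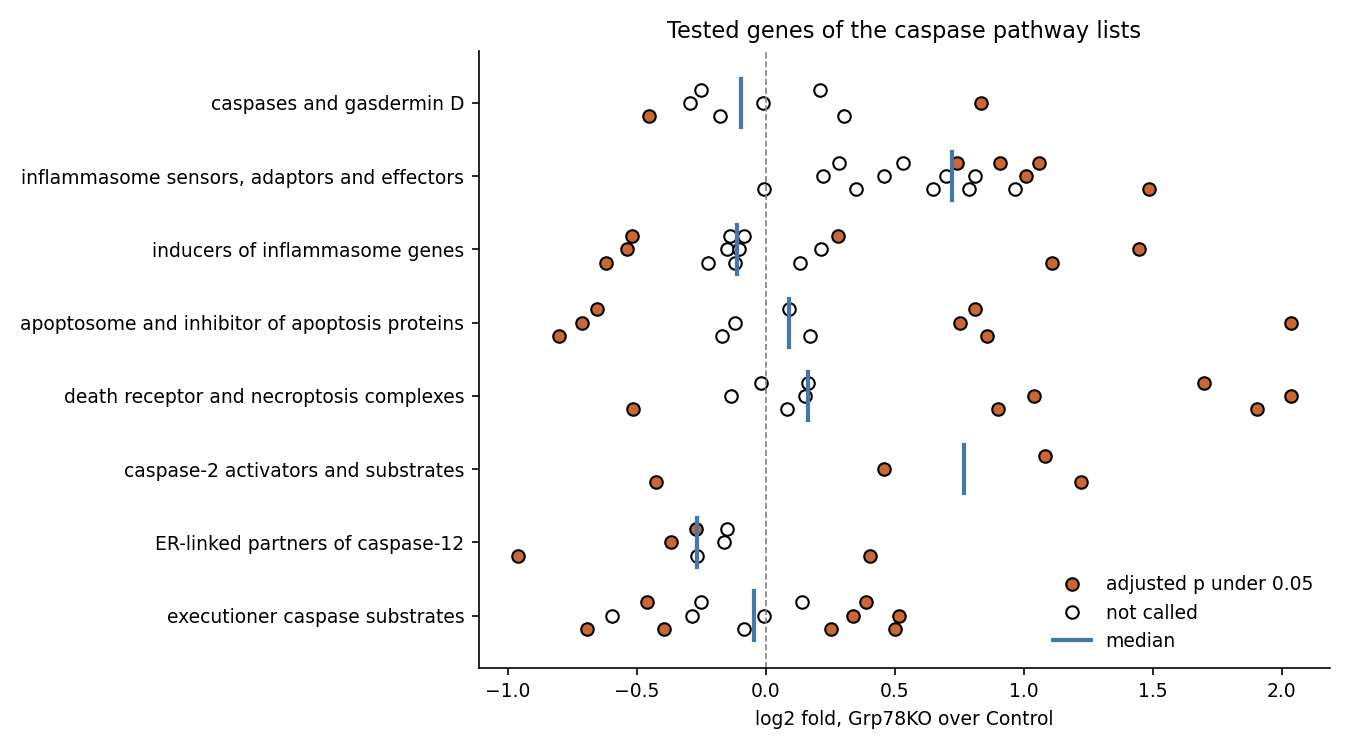
Log2 fold of every tested gene in each list, libraries labelled knockout over controls, with the 8 genes in the top row; each point is a gene, filled where the edgeR adjusted p was under 0.05, and blue bars are list medians. Among the lists of 10 or more tested genes the inflammasome list has the highest median, 0.72, and the list of 4 genes around Casp2 has a median of 0.77.

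The inflammasome list holds sensors, adaptors and effectors around Casp1 and Casp4. Of 16 tested inflammasome genes, 5 were higher and 0 lower by edgeR, with a median log2 fold of 0.72. Of all genes tested, 18% were higher and 18.8% lower. With limma-voom and DESeq2 0 of the 16 were lower, as at an unadjusted edgeR p under 0.05. DESeq2 called 7 of the 16 higher, and 4040 of all genes higher against 3391 with edgeR. The sensor genes Nlrp3, Nlrc4, Naip1, Naip5, Naip6 and Aim2 were not called. Of these, Nlrc4, Naip1, Naip6 and Aim2 were at no more than 0.268 CPM in any control. Without library 3 labelled knockout, the log2 folds of Nlrp3, Naip6 and Aim2 turned from 0.28, 0.79 and 0.81 to -0.80, -0.07 and -0.15. The list median of 0.72 includes these genes. Naip2, a sensor of bacterial secretion systems, rose by a log2 fold of 1.48 (edgeR adjusted p = 0.00125). The guanylate-binding protein genes Gbp2, Gbp3 and Gbp5, which act on bacterial membranes upstream of Casp4, rose by log2 folds of 0.74, 1.01 and 0.91, and Il1b by 1.06 (edgeR adjusted p = 0.0302) from a level under 0.5 CPM in each control. The Naip and Gbp genes belong to families of near copies, so their counts are uncertain. The Gbp5 call ended without control 1, control 2 or library 2 labelled knockout (edgeR adjusted p = 0.0712 to 0.0794). The Il1b call ended without any one library other than control 1 (edgeR adjusted p = 0.0509 to 0.101) and with the replicate block (edgeR adjusted p = 0.0543). Pycard, the adaptor that links sensors to Casp1, was at 7.61, 6.03 and 6.43 CPM in controls and at 7.77, 8.22 and 15.5 CPM in the libraries labelled knockout, with a log2 fold of 0.65 that did not pass (edgeR adjusted p = 0.0916). Its highest value was in library 3 labelled knockout, the library with the most leukocyte marker RNA. The part of leukocytes in the Pycard result was not tested. Il18, a Casp1 substrate, differed by 0.53 on the log2 scale (edgeR adjusted p = 0.0698).

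Factors that induce inflammasome genes went both ways, 3 of 14 higher and 3 lower (median log2 fold -0.11). The interferon regulatory factor genes Irf7 and Irf8 rose by log2 folds of 1.11 and 1.45, and the receptor gene Ifnar1 by 0.28. Irf1, Irf2 and Nfkb1 fell by 0.54, 0.62 and 0.52 on the log2 scale. IRF2 is known to drive Gsdmd transcription. Irf2 was at 66.2, 67.4 and 52.0 CPM in controls and at 36.6, 39.1 and 45.1 CPM in the libraries labelled knockout (edgeR adjusted p = 0.00965). The part of Irf2 in the Gsdmd result was not tested. The calls of Irf1, Irf2 and Nfkb1 ended with scaling by library size (log2 folds -0.27, -0.35 and -0.26). The Irf1 call also ended without library 2 labelled knockout (edgeR adjusted p = 0.0535), that of Irf8 without control 1 or control 3 (edgeR adjusted p = 0.0597 to 0.0607), and that of Ifnar1 without any one of the libraries numbered 1 and 2 (edgeR adjusted p = 0.0757 to 0.106).

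Partners of Casp9 moved in both directions. Of 11 tested genes of the apoptosome and the inhibitor of apoptosis proteins, 4 were higher and 3 lower (median log2 fold 0.092). Apaf1, the scaffold of the apoptosome, rose by a log2 fold of 0.81 (edgeR adjusted p = 0.00542), Cycs (cytochrome c) by 0.75 and Htra2, which binds inhibitors of apoptosis, by 0.86. Xiap, the direct inhibitor of caspase-9, fell by 0.65 on the log2 scale (edgeR adjusted p = 0.00349), Birc6 by 0.71 and Birc3 by 0.80. The fourth that rose, Birc5, is also a mitotic gene (log2 fold 2.04). The Cycs call ended without any one library other than library 3 labelled knockout (edgeR adjusted p = 0.066 to 0.0962), and that of Birc3 without library 2 labelled knockout (edgeR adjusted p = 0.0513) and with scaling by library size.

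Around Casp8, whose own level differed little, 5 of 11 tested genes of death receptor and necroptosis complexes were higher and 1 was lower (median log2 fold 0.16). The death receptor genes Fas and Tnfrsf10b rose by log2 folds of 0.90 and 1.70. The necroptosis genes Ripk3, Mlkl and Zbp1, whose proteins drive a form of cell death that caspase-8 restrains, rose by 2.04, 1.04 and 1.91. Ripk3 was at 0.921, 0.562 and 0.758 CPM in controls and at 3.27, 3.38 and 2.54 CPM in the libraries labelled knockout (edgeR adjusted p = 0.0013). Cflar, which encodes the caspase-8 inhibitor c-FLIP and is the protein-coding gene before Casp8 on chromosome 1, fell by 0.51 on the log2 scale, a call that ended with scaling by library size (-0.26). The adaptor gene Fadd differed by 0.16 (edgeR adjusted p = 0.189).

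All 4 genes listed around Casp2 were called, against 36.8% of all genes tested. Pidd1, the scaffold of the PIDDosome, rose by 1.08 on the log2 scale (edgeR adjusted p = 0.00256), and the caspase substrate genes Bid and Mdm2 by 1.22 and 0.46. Cradd, the adaptor that joins Casp2 to Pidd1, fell by 0.43 on the log2 scale (edgeR adjusted p = 0.00692), a call that ended with scaling by library size (-0.17). Casp2 itself was not called.

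Among 7 genes linked to Casp12 at the ER, 1 was higher and 3 were lower, with a median log2 fold of -0.27. Capn2, a calpain of the kind reported to cut caspase-12, rose by 0.40 (edgeR adjusted p = 0.0368), and the other large calpain subunit gene of the list, Capn1, fell by 0.27 on the log2 scale. Itpr1, an ER calcium release channel, fell by 0.96 and Ern1, the ER stress sensor IRE1, by 0.37. The calls of Capn2 and Capn1 ended without any one library other than library 3 labelled knockout (edgeR adjusted p = 0.0645 to 0.153). The Itpr1 call ended without control 2 or library 2 labelled knockout (edgeR adjusted p = 0.052 to 0.0631), and that of Ern1 without those or library 1 labelled knockout (edgeR adjusted p = 0.0502 to 0.0748). The calls of Capn1, Itpr1 and Ern1 also ended with scaling by library size.

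Of 14 executioner caspase substrates, 5 were higher and 3 lower (median log2 fold -0.045). Lmna, the lamin gene whose protein caspase-6 cuts, rose by 0.52 (edgeR adjusted p = 0.0045), and Lmnb1, Parp1, Panx1 and Gsn rose by 0.50, 0.25, 0.39 and 0.34. Acin1, Rock1 and Sptan1 fell by 0.69, 0.46 and 0.39 on the log2 scale. The Rock1 call ended without control 2 (edgeR adjusted p = 0.0556) and that of Acin1 without library 2 labelled knockout (edgeR adjusted p = 0.0505). Those of Lmnb1, Parp1, Panx1, Gsn and Sptan1 each ended without any one of 4 to 6 libraries, controls and libraries labelled knockout alike (edgeR adjusted p = 0.0574 to 0.206). Scaling by library size ended the calls of Acin1, Rock1 and Sptan1.

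Genes next to the 8 on their chromosomes were called in 5 of 12 cases, against 36.8% of all genes tested, 2 higher (Clcn1 beside Casp2 and Pla2g12a beside Casp6, log2 folds 1.96 and 1.49) and 3 lower (Tmem139 beside Casp2, Cflar beside Casp8 and Efhd2 beside Casp9, log2 folds -0.34, -0.51 and -0.53). Tmem139 lost its call without any one library other than control 3 (edgeR adjusted p = 0.0561 to 0.159). Clcn1 was near the floor, at 0.0635 ± 0.00586 CPM in controls and 0.250 ± 0.0723 CPM in the libraries labelled knockout (SD, n = 3 each). Pla2g12a ends 5599 bases before Casp6. The other neighbours, Mcub, Trak2, Dnajc16, Zc3h3, Mroh6, Gria4 and Pdgfd, were not called.

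The genes most like each of the 8 across the 6 libraries were found by Pearson's r of log2 CPM over 9425 genes of at least median level. For Casp12 they were Dalrd3 (0.997), Tarbp2 (0.995) and Rps6ka4 (0.995), and 438 genes had an r over 0.95. For Gsdmd they were Rab3a (0.997), Rbm45 (0.997) and Nudt9 (0.997), with 938 genes over 0.95, and for Casp6 they were Nfatc3 (0.9996), Med13 (0.999) and Itga3 (0.999), with 931. Casp4 was closest to Slc30a4 (0.997), Noct and Il13ra1, Casp9 to Fzd2 (0.997), Hpcal1 and Zer1, and Casp2 to Dyrk1b (0.997), Kdm3a and Pou2f1. Casp1 was closest to Cacna2d1 (0.971), Slc38a2 and Twistnb, with 5 genes over 0.95, and Casp8 to 9430091E24Rik (0.958), Fxyd6 and Tgfb1, with 1. These values rest on 6 points in 2 groups that share library depth and composition, and they describe likeness only.

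**Figure D4:**
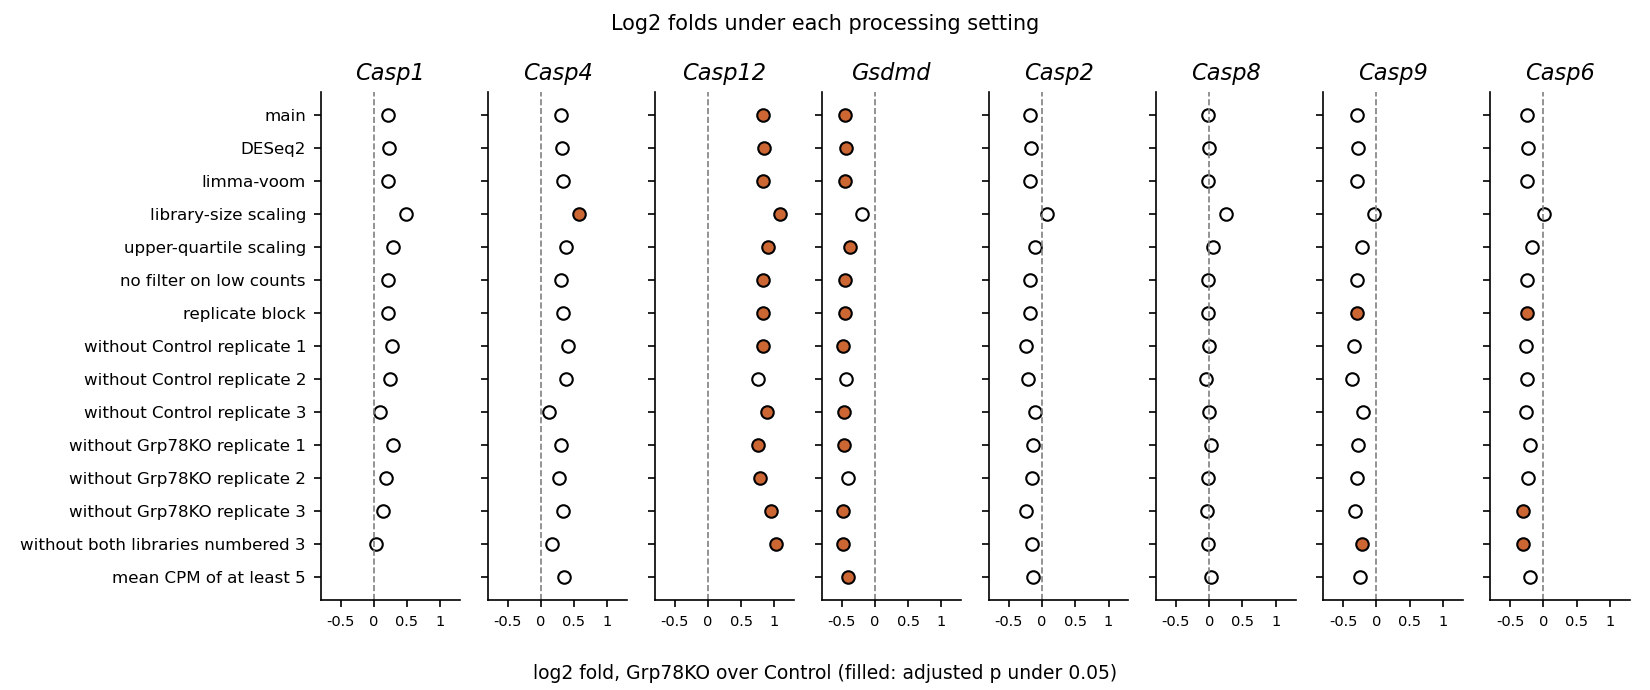
Log2 fold of each gene under each processing setting, one panel per gene on a shared axis; filled points have an adjusted p under 0.05. Casp12 lies between 0.75 and 1.08 and Gsdmd between -0.49 and -0.19 in every setting shown, and Casp1 and Casp12 have no value at a mean of at least 5 CPM because they fall below it.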

How the data were processed

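The authors deposited raw read counts per gene symbol for the 6 libraries, from paired reads of NEBNext Ultra RNA libraries per the labels' protocols. The build mm10 and edgeR 3.7 are named in the submitters' processing notes; which aligner, counter and annotation were used is not given in the sources used here. Genes with 2 counts outnumbered those with 1 count by 1.63 to 1.76 times, as would happen if both mates of a pair were counted, and counting error then exceeds what the counts imply. The labels do not state strand.

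Computed here were filterByExpr, TMM scaling and the robust quasi-likelihood F test in edgeR 4.0.16 (R 4.3.3) on all 6 libraries with group as the only term, with Benjamini-Hochberg adjustment over 18849 genes and a threshold of 0.05. CPM uses TMM-scaled library sizes, SE was taken from the F statistic as log2 fold over its root, and the common biological coefficient of variation was 22.3%. Alternatives were DESeq2 1.42.0, limma-voom (limma 3.58.1), 2 other scalings, 2 other filters, a block for replicate number, and fits that left out libraries. The same script was tested on simulated counts.

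Same-numbered libraries deviated together across genes (correlations 0.174, 0.147 and 0.281, all over 0.1), although no label explains the numbers. Of the differently numbered pairs, 1 (control 2 with library 1 labelled knockout) reached 0.116, and control 1 with library 2 labelled knockout was at 0.0897. The highest value was that of the libraries numbered 3. Deviations from a mean of 3 libraries sum to 0 in each group, so likeness of these alone would raise the values among libraries 1 and 2. The values of the pairs numbered 1 and 2 are thus not separate support for pairing by number. The main fit has no term for such pairing. The replicate block was an alternative, and blocked values stand where they change a call. No 2 libraries of a group were alike within sampling noise (chi-square 7.98 to 166 a gene on halved counts). Coordinates and lengths are from GENCODE M21, which matched 48018 of 52550 symbols. Gsdmd had no promoter printed. Members, lists and motifs were chosen with earlier results of these data known. Named genes are the 8 genes, Hspa5, the up to 4 lowest adjusted p in each list with any direction of 5 or fewer calls, chromosome neighbours and the most similar genes; Fadd, Pycard and Il18 were chosen for their role after their values were seen. Other members of the caspase and gasdermin families are not reported here.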

Additional observations from a re-analysis of the deposited data

How the results depend on the processing

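Casp12 kept its direction in all 13 settings that could be fitted and its call in 12, and Gsdmd kept its direction in all 14 and its call in 11. With 1 library left out the log2 fold was 0.75 to 0.95 for Casp12, -0.48 to -0.41 for Gsdmd, -0.31 to -0.20 for Casp6, -0.042 to 0.026 for Casp8 and -0.36 to -0.20 for Casp9, the lone positive value of Casp8 coming without library 1 labelled knockout; 0 to 3 of the 8 genes, 1684 to 4242 genes higher and 1881 to 4306 lower were called. With scaling by library size, Casp2 (0.076), Casp6 (0.011) and Casp8 (0.25) changed sign, Casp4 was called (0.57), Gsdmd was not (-0.19), and 6218 genes were higher and 1343 lower, 82.2% of calls higher against 48.9%. That scaling moved the median gene by 0.26. Relative to it Casp2 (-0.20), Casp6 (-0.26) and Casp8 (-0.026) kept their sign, which a shift shared by all genes fixes in advance. Casp8 was also positive with DESeq2 (0.0041), upper-quartile scaling (0.062, 59.2% of all calls higher) and the filter at a mean of 5 CPM (0.034). That filter left 1 of the 8 genes called, since Casp12 fell below it. With the replicate block 4 of the 8 genes were called, Casp6 (-0.25) and Casp9 (-0.29) being added, against 44.6% of all genes; it changed no other call among the 8. Without both libraries numbered 3, 4 were also called (Casp6 -0.31, Casp9 -0.21), with 5355 genes higher in all and 56.0% of genes called. Over all settings the lists held 1 to 8 inflammasome genes higher, 1 to 5 inducers higher and 0 to 5 lower, 2 to 8 death receptor genes higher and 0 or 1 lower, 1 to 3 Casp2 partners higher and 0 or 1 lower, 0 or 1 Casp12 partners higher and 0 to 5 lower, and 1 to 6 executioner substrates higher and 0 to 7 lower. At 180 to 591 counts per library, depth limits Casp1 and Casp12 most.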
